A study of Homo sapiens with 6 samples.

Results

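The genes described here are 54 genes of DNA replication origins and forks, taken by symbol from the 60612 genes of the deposited expression table. They were sorted by their textbook roles into 15 licensing genes, 8 firing genes, 21 fork synthesis genes and 10 genes of fork protection and chromatin. Membership goes by symbol and role with no threshold on these samples, every one of the 54 was found in the table, and all of them had enough reads to be among the 12000 genes tested. The genes and roles, and the pathway and marker lists used below, were chosen with earlier results of these data known. The cells were HCT116, an established human colorectal cancer line of epithelial origin, and the study compared cells given PLOD3 siRNA with cells given the control siRNA si NC. There were 3 samples in each group, all of the same line and grown in the same medium, and both siRNAs were given for 2 days. The product of PLOD3 adds hydroxyl and sugar groups to the lysines of collagen. The labels give neither the siRNA sequences nor a statement that replicates came from separate cultures. All p-values therefore rest on the variation among the deposited samples alone, and part or all of it may be technical.

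Replication starts in G1, when the origin recognition complex (ORC), CDC6 and CDT1 load the ring-shaped MCM2-7 helicase onto DNA as an inactive double hexamer, a step called licensing. In S phase the DBF4-dependent kinase CDC7 and cyclin-dependent kinases turn on the helicase by recruiting CDC45 and the GINS complex, which is called firing. The forks that result are copied by primase with polymerase alpha and by polymerases delta and epsilon, which are held on DNA by the sliding clamp PCNA. RPA coats the single-stranded DNA, the RFC complex loads PCNA, and FEN1 and LIG1 join the lagging strand. Many of these genes are transcribed at the G1 to S transition under E2F factors, the transcription factors that RB family proteins hold in check.

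Total counts ranged from 55416555 to 76802428 units per sample, where about 4 units stand for 1 read pair, and the members' counts ranged from 460 units for RADX to 36092 units for MCM7. Across genes, Pearson's r of log2 scaled counts (log2 CPM) was 0.961 to 0.971 within groups and 0.935 to 0.951 between them. PLOD3 had 3.44, 3.40 and 4.05 FPKM in PLOD3 siRNA samples, against 6.40, 7.16 and 6.22 FPKM in si NC samples, so the PLOD3 siRNA samples were lower than every si NC sample. It fell to 55.1% of the control level, with a change of -0.85 ± 0.11 in log2 units (SE; edgeR adjusted p = 0.0035), and the two-sided exact permutation test gave p = 0.1, the smallest that 3 against 3 samples allow. Its transcript has 61.7% GC, and with a correction for GC content its log2 fold change was -0.55 (edgeR adjusted p = 0.0059), as it was with GC and length. PLOD3 shares 7.56% of its exon bases with ZNHIT1 on the other strand, which had 8.21 FPKM on average over all samples. Without a stated strand setting, reads of this pair cannot be told apart. Of 7 colon epithelial markers, all 7 were tested and 4 fell (KRT18, KRT19, CDH1 and CLDN3), against 19.3% of all tested genes, with a summed level of 576 to 654 FPKM in PLOD3 siRNA samples and 703 to 749 in si NC samples. KRT19 did not pass in any of the 6 fits with a sample left out and turned to 0.07 on the log2 scale with the GC correction described below (edgeR adjusted p = 0.387), and CDH1 passed in 2 of the 6. Apart from COL1A1 and CD68, markers of other cell types were below a mean of 1 FPKM. Fibroblast markers summed to 1.49 to 1.92 FPKM in PLOD3 siRNA samples and 2.66 to 2.82 in si NC samples, with DCN and LUM at 0. COL1A1 made up most of these sums and fell by -0.50 on the log2 scale (edgeR adjusted p = 0.0158), and by -0.22 with the GC correction (0.184). The leukocyte list's CD68 had 1.57, 1.57 and 1.51 FPKM in PLOD3 siRNA samples, against 1.26, 0.653 and 0.507 in si NC samples. Its log2 difference of 0.96 did not pass (edgeR adjusted p = 0.0614). Leukocyte markers summed to 1.72 to 1.85 FPKM in PLOD3 siRNA samples and 0.986 to 1.87 in si NC samples (PTPRC and CD3E at 0), and endothelial markers to 0.273 to 0.292 FPKM in PLOD3 siRNA samples and 0.192 to 0.504 in si NC samples (CDH5 at 0). All 6 short noncoding RNAs looked at, RN7SL1 among them, were higher in PLOD3 siRNA samples, with a summed level of 180.4 to 231 FPKM against 6.52 to 8.18 in si NC samples, and the part of these marker and noncoding RNA shifts in the results below was not tested.

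Replication genes were more often higher in PLOD3 siRNA samples than lower. Of the 54, 34 rose and 0 fell by edgeR's quasi-likelihood test at an adjusted p under 0.05, and 20 did not pass. Across all 12000 tested genes, 16.2% rose and 19.3% fell. At an unadjusted p under 0.05, 37 members were higher and 3 lower (MCM3, POLD1 and POLE), against 22.6% and 24.6% of all tested genes. DESeq2 called 36 members higher and 0 lower, against 19.7% and 21.3% of all genes it tested. The members' median log2 fold change was 0.39, against 0.00 over all tested genes, and 43 of 54 had a value above 0, against 50.3% of all tested genes. The changes were modest in size: 11 of the 34 reached 1.5-fold, which 5.56% of all tested genes did in that direction. Groups did not overlap for 37 members that were higher in PLOD3 siRNA and for 2 that were lower (MCM3 and POLD1), against 24.6% of all tested genes higher and 27.5% lower. Per sample, the members' median deviation from the si NC mean on log2 CPM was 0.41, 0.36 and 0.39 in PLOD3 siRNA samples, against 0.01, -0.02 and -0.01 in si NC samples. Summed over the 54 genes, levels were 1275, 1279 and 1281 FPKM in PLOD3 siRNA samples, against 1066, 1027 and 1013 FPKM in si NC samples. FPKM is a level per kilobase, but the length used for each gene is not given, so levels of different genes compare only roughly. MCM5, for example, had 11683 to 15616 units at means of 25.4 and 25.8 FPKM in PLOD3 siRNA and si NC. MCM2, of nearly the same transcript length, had 10490 to 14252 units at higher means of 35.7 and 36.3 FPKM. In bulk RNA, a larger share of cells that express these genes and more of their RNA per cell cannot be told apart.

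**Figure D1:**
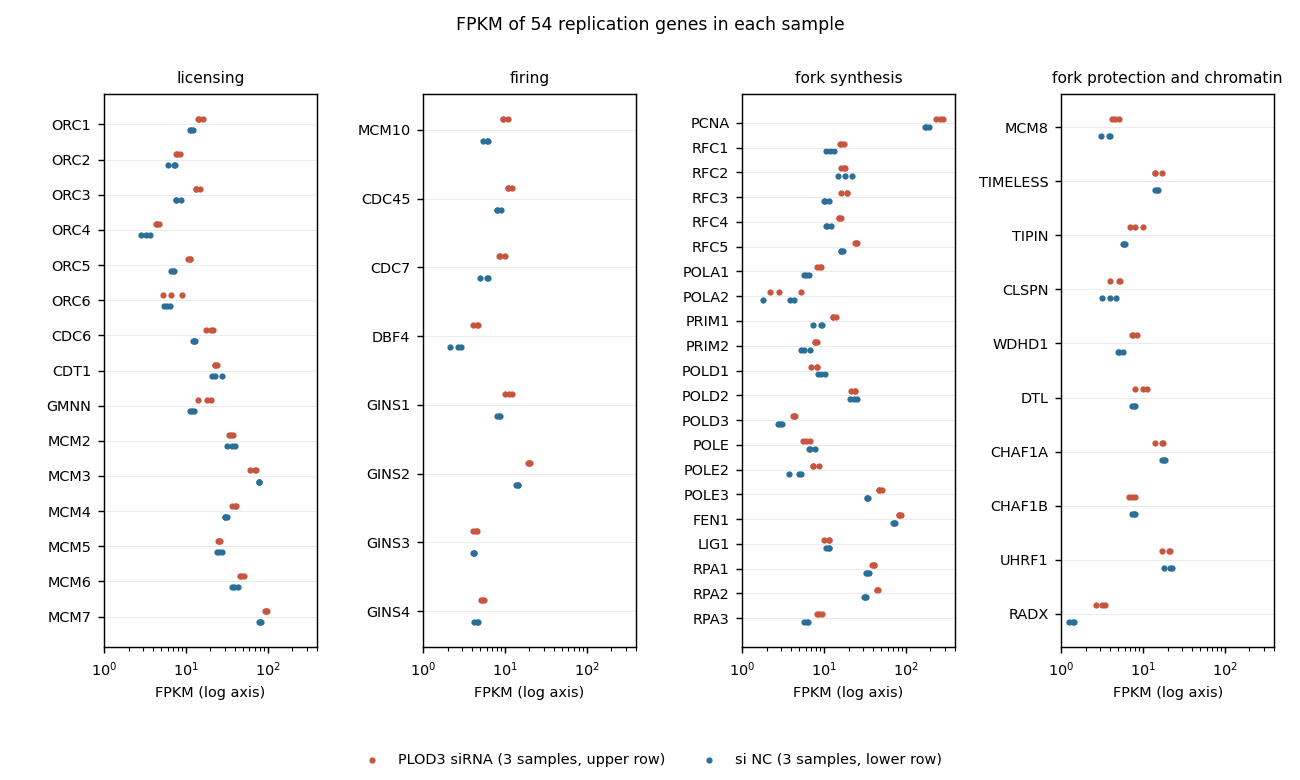
FPKM (log axis) of each replication gene in the 3 PLOD3 siRNA samples (upper points) and the 3 si NC samples (lower points), in 4 panels by role. The points of the groups do not overlap for 39 of the 54 genes, and PLOD3 siRNA points lie to the right for 37 of these.

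Transcript GC content moved with the fold changes. The members' GC content ran from 37.7% to 65.0%, with a median of 45.5%, against 49.1% over all tested genes. Their log2 fold change correlated with GC content at Pearson's r = -0.79 and Spearman's rho = -0.76 across the 54 genes, against r = -0.38 and rho = -0.50 across all tested genes. These points share the same 6 libraries, so the correlations are descriptions. Among the 36 members below the median GC content of all tested genes, 29 rose, and 26.3% of all tested genes below it did. Among the 18 members at or above it, 5 rose (ORC1, MCM7, CDC45, GINS2 and FEN1), and 6.15% of all tested genes there did. With a correction for the GC trend in each sample, 28 members were higher and 0 lower by edgeR, against 12.0% and 15.3% of all tested genes, and the members' median was 0.26. Of the 34 genes that rose, 27 passed after that correction, CDT1 passed in addition, and ORC4, GMNN, MCM6, GINS1, PRIM2, RPA1 and TIPIN no longer passed. With a correction for GC content and transcript length, 32 members were higher and 0 lower, against 12.8% and 13.8% of all tested genes, with a median of 0.29. Of the 34, 28 passed there and 6 did not (ORC4, GMNN, GINS1, PRIM1, PRIM2 and TIPIN), while 4 genes that had not passed did (CDT1, MCM5, LIG1 and MCM8). Whether the GC trend is technical was not tested.

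**Figure D2:**
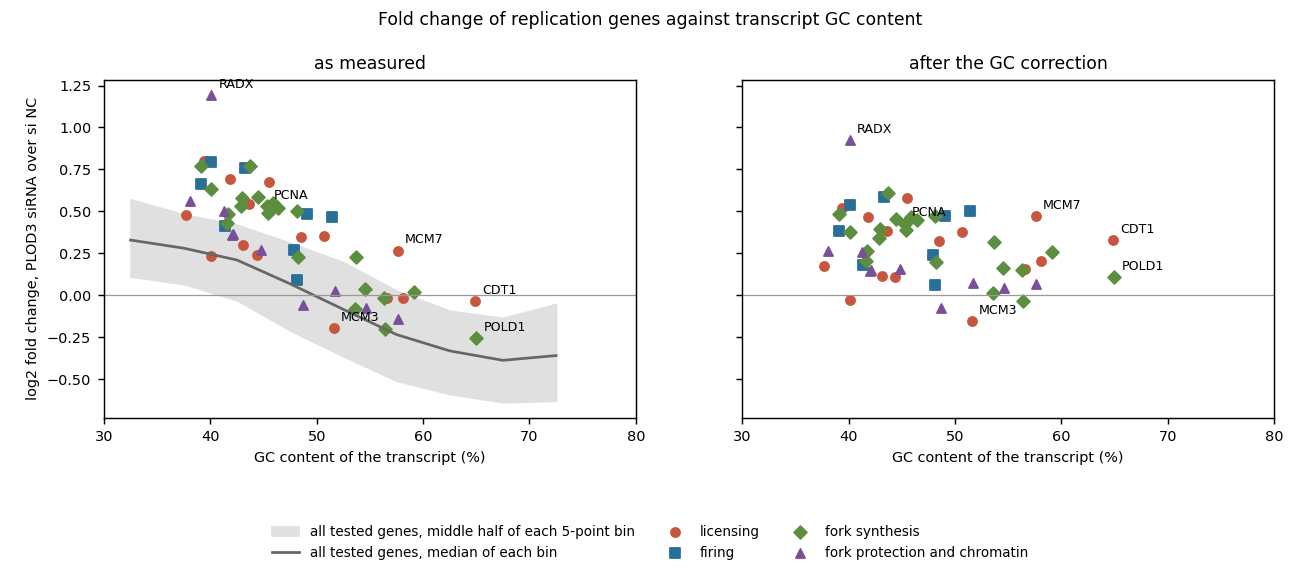
Log2 fold change of PLOD3 siRNA over si NC (y axis) against the GC content of each gene's transcript in percent (x axis), as measured (left) and after the GC correction (right). Points are the 54 genes by role. In the left panel only, the line and band are the median and the middle 50% of all tested genes in bins of GC content. As measured, values of members fall with GC content, as the line of all genes does. The members' median is 0.39 as measured and 0.26 after the correction.

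Promoter sequences were searched for letters that many of these genes share. The genes were chosen by replication role, and many such genes are known to be transcribed under E2F factors. The share with an E2F core is therefore not independent of that choice. RefSeq windows on GRCh38.p14, running from 250 bases before to 50 bases after a transcription start, were at hand for 47 of the 54 genes, in 62 windows, since 11 genes had more than 1. They were searched on both strands for 4 spellings of an E2F core. The first spelling was TTCCCGC, the second was written TTGGCGC, the third spelling was TTCGCGC and the fourth was written TTGCCGC. A core was present in 39 of the 62 member windows (62.9%), against 13.0% of all 35116 windows and 20.1% of the windows of tested genes. By gene, 36 of 47 members (76.6%) had a core in at least 1 window, against 26.1% of tested genes and 15.3% of all genes with a window. The share was 75.0% among members that rose and 78.9% among members that did not pass, so genes of either kind carried these letters. The CCAAT box (CCAAT, both strands) was present in 53.2% of member windows, against 35.2% of the windows of tested genes and 34.6% of all windows, and 5 member windows held an E2F core that overlaps a CCAAT. The cell cycle homology element spelled TTTGAA was present in 2 member windows (3.23%), against 9.79% of the windows of tested genes and 15.2% of all windows. The median GC content was 64.7% for member windows, 65.3% for windows of tested genes and 58.7% for all windows. A match is a description, not a binding site or a cause. The lines below give the 120 bases before the start for 3 genes that rose and 3 that did not pass, 5′ to 3′ on the gene's strand, with the E2F core in capitals. They are shown because the same core stands in genes of both outcomes.
ORC3, rose, chr6:87590015-87590134, plus strand: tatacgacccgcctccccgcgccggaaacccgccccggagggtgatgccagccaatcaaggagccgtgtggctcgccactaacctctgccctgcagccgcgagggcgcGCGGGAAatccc
CDC7, rose, chr1:91500731-91500850, plus strand: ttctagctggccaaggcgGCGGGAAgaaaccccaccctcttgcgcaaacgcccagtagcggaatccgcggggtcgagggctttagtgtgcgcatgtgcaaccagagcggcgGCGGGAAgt
RFC3, rose, chr13:33818029-33818148, plus strand: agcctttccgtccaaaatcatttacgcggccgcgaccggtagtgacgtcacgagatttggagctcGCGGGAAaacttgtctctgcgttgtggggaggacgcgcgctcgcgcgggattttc
MCM3, did not pass, chr6:52284743-52284862, minus strand: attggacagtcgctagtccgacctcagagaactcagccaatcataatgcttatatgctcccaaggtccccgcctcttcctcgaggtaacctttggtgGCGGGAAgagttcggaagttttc
POLE, did not pass, chr12:132687343-132687462, minus strand: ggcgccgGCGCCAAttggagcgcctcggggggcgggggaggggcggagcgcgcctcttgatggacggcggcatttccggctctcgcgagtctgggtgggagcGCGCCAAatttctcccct
CHAF1A, did not pass, chr19:4402520-4402639, plus strand: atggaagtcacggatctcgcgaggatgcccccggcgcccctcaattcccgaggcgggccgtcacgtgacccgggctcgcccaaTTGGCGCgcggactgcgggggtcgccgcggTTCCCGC
The core GCGGGAA, which is TTCCCGC read on the other strand, begins 12 bases before the start in ORC3, 55 in RFC3 and 23 in MCM3, and in CDC7 it occurs at 102 and at 9 bases. POLE holds GCGCCAA, which is TTGGCGC on the other strand, at 113 and 18 bases, and CHAF1A holds TTGGCGC at 37 and TTCCCGC at 7 bases.

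Licensing genes rose in part. Of 15, 9 rose and 0 fell by edgeR, against 16.2% and 19.3% of all tested genes, with a median log2 fold change of 0.30. After the GC correction 7 were higher, against 12.0% of all tested genes, with a median of 0.32. The rise was found in 4 of the 6 ORC subunits, in the loader CDC6, in geminin (GMNN), the inhibitor of CDT1, and in 3 of the 6 helicase subunits. At an unadjusted p under 0.05, 1 licensing gene was lower (MCM3), against 24.6% of all tested genes. ORC3, a core subunit of the complex that marks origins, had 13.5, 14.8 and 13.2 FPKM in PLOD3 siRNA samples, against 8.80, 7.61 and 7.49 FPKM in si NC samples (ENSG00000135336, chromosome 6, 87590067 to 87667453, plus strand, on GRCh38 as are all positions here). Every PLOD3 siRNA sample lay above every si NC sample, with a change of 0.80 ± 0.10 in log2 units (SE; edgeR adjusted p = 0.0033). ORC5, an ATP-binding core subunit, had 11.3, 11.2 and 10.5 FPKM in PLOD3 siRNA samples, against 6.92, 7.11 and 6.56 FPKM in si NC samples, again without overlap. It showed a change of 0.69 ± 0.08 in log2 units (SE; edgeR adjusted p = 0.00329). CDC6, the ATPase that brings the helicase to ORC, had 20.3, 21.8 and 17.9 FPKM in PLOD3 siRNA samples, against 13.1, 12.5 and 12.2 FPKM in si NC samples. The lowest PLOD3 siRNA sample exceeded the highest si NC sample, with a change of 0.68 ± 0.10 in log2 units (SE; edgeR adjusted p = 0.00519).

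GMNN, which binds CDT1 and blocks relicensing in S phase, had 14.1, 20.3 and 18.0 FPKM in PLOD3 siRNA samples, against 11.9, 11.4 and 12.8 FPKM in si NC samples (ENSG00000112312, chromosome 6, 24774931 to 24786099, plus strand). The groups did not overlap, but PLOD3 siRNA replicate 1 lay much closer to si NC than the others, and the result was a change of 0.55 ± 0.15 in log2 units (SE; edgeR adjusted p = 0.0353). That call held in 1 of 6 fits with a sample left out, the one without PLOD3 siRNA replicate 1, and was lost in the other 5 at adjusted p values of 0.0706 to 0.0975 by edgeR. ORC4 had 4.46, 4.72 and 4.27 FPKM in PLOD3 siRNA samples, against 3.63, 2.81 and 3.29 FPKM in si NC samples, the lowest levels of the 6 ORC subunits in each sample, and a change of 0.48 ± 0.11 in log2 units (SE; edgeR adjusted p = 0.0185). It was lost without PLOD3 siRNA replicate 1 (edgeR adjusted p = 0.0502), PLOD3 siRNA replicate 2 (0.053) or si NC replicate 3 (0.0529). ORC1, the subunit whose level rises in G1 and which is degraded in S phase in human cells, had 16.0, 14.6 and 14.0 FPKM in PLOD3 siRNA samples, against 12.2, 11.4 and 11.5 FPKM in si NC samples and a change of 0.35 ± 0.08 in log2 units (SE; edgeR adjusted p = 0.0151). Its adjusted p by edgeR was 0.0564 without PLOD3 siRNA replicate 1 and 0.0527 without si NC replicate 3. ORC2 had 8.58, 7.65 and 7.78 FPKM in PLOD3 siRNA samples, against 7.17, 6.06 and 7.30 FPKM in si NC samples, groups that did not overlap, and a log2 difference of 0.23, short of the threshold (edgeR adjusted p = 0.0849). ORC6 overlapped between the groups, with 6.57, 5.28 and 8.96 FPKM in PLOD3 siRNA samples, against 6.34, 5.87 and 5.43 FPKM in si NC samples.

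Among the helicase subunits, MCM4 (log2 0.34, edgeR adjusted p = 0.00745), MCM6 (0.30, 0.0228) and MCM7 (0.27, 0.0174) rose, each without overlap between the groups. MCM7, the most abundant, had 97.1, 94.5 and 99.8 FPKM in PLOD3 siRNA samples, against 82.3, 82.0 and 78.8 FPKM in si NC samples. MCM4 had 41.3, 36.6 and 39.8 FPKM in PLOD3 siRNA samples, against 31.8, 30.6 and 30.6 FPKM in si NC samples. MCM6 had 52.2, 46.0 and 47.6 FPKM in PLOD3 siRNA samples, against 43.1, 37.0 and 38.9 FPKM in si NC samples. MCM6 did not pass without PLOD3 siRNA replicate 1 (edgeR adjusted p = 0.0812) or si NC replicate 3 (0.0725). MCM7 did not pass without PLOD3 siRNA replicate 1 (0.0546), si NC replicate 1 (0.0544) or si NC replicate 3 (0.0704). MCM7 shares 8.94% of its exon bases with AP4M1 on the other strand, which had 2.17 FPKM on average over all samples, and without a stated strand setting reads of the pair cannot be told apart. MCM3 stood the other way, at 71.1, 61.7 and 71.6 FPKM in PLOD3 siRNA samples, against 77.6, 78.6 and 78.5 FPKM in si NC samples. All 3 PLOD3 siRNA samples were below all 3 si NC samples, but the log2 difference of -0.20 did not pass (edgeR adjusted p = 0.0603). It passed as lower under 2 alternatives, at -0.24 when only genes with a mean of at least 5 FPKM were tested (edgeR adjusted p = 0.0329), where 22.2% of the genes tested fell, and at -0.37 after quantile normalization with limma (adjusted p = 0.0204), where 18.1% fell. After that normalization 0 of the 6 helicase subunits were called higher, against 16.6% of all tested genes. MCM2 and MCM5 overlapped between the groups, with log2 differences of -0.02 each, and MCM2 had 35.6, 34.0 and 37.6 FPKM in PLOD3 siRNA samples, against 40.0, 36.6 and 32.3 FPKM in si NC samples. MCM5 had 25.3, 24.6 and 26.3 FPKM in PLOD3 siRNA samples, against 25.5, 28.0 and 23.8 FPKM in si NC samples. The direction of both turned positive under the GC correction, at 0.20 for MCM2 and 0.16 for MCM5, without passing. With GC and length MCM5 passed as higher, at 0.22 (edgeR adjusted p = 0.041).

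CDT1, which loads the helicase together with CDC6, overlapped between the groups at 22.8, 22.6 and 23.9 FPKM in PLOD3 siRNA samples, against 22.5, 27.6 and 21.0 FPKM in si NC samples. Its log2 difference was -0.03 (edgeR adjusted p = 0.846), and after the GC correction it was 0.33 and passed (adjusted p = 0.0246), in a transcript of 64.9% GC. The FPKM ratio of CDT1 to its inhibitor GMNN was 1.62, 1.11 and 1.33 in PLOD3 siRNA samples, against 1.88, 2.42 and 1.65 in si NC samples. The ratio was lower in every PLOD3 siRNA sample than in every si NC sample, by a small margin at the nearest pair, and was not tested. It compares transcripts of 64.9% (CDT1) and 43.6% (GMNN) GC. The log2 fold changes of CDT1 and GMNN were -0.03 and 0.55 as measured, 0.33 and 0.38 after the GC correction, and 0.36 and 0.21 with GC and length. The pair thus changed by nearly the same amount after the GC correction, and CDT1 by more than GMNN with GC and length.

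Nearly all firing genes rose. Of 8, 7 rose and 0 fell by edgeR, against 16.2% and 19.3% of all tested genes. At an unadjusted p under 0.05 also 0 were lower, against 24.6%. DESeq2 likewise called 7 higher and 0 lower, against 19.7% and 21.3% of all genes it tested. The median log2 fold change was 0.47. After the GC correction it was 0.43, with 6 higher, against 12.0% of all tested genes. DBF4, the regulatory subunit that activates the CDC7 kinase, had 4.72, 4.05 and 4.54 FPKM in PLOD3 siRNA samples, against 2.91, 2.15 and 2.64 FPKM in si NC samples (ENSG00000006634, chromosome 7, 87876216 to 87908376, plus strand). All PLOD3 siRNA samples were above all si NC samples, with a change of 0.79 ± 0.12 in log2 units (SE; edgeR adjusted p = 0.00542). CDC7, the kinase itself, had 10.1, 8.69 and 8.52 FPKM in PLOD3 siRNA samples, against 6.17, 5.03 and 6.13 FPKM in si NC samples. It moved with its partner, without overlap and with a change of 0.66 ± 0.11 in log2 units (SE; edgeR adjusted p = 0.00717). MCM10, which is needed for the loaded helicase to open DNA, had 10.8, 9.60 and 9.59 FPKM in PLOD3 siRNA samples, against 6.10, 5.43 and 6.29 FPKM in si NC samples. The groups were far apart relative to their spread, with a change of 0.76 ± 0.08 in log2 units (SE; edgeR adjusted p = 0.00277).

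GINS2 had 20.1, 19.7 and 19.4 FPKM in PLOD3 siRNA samples, against 14.5, 14.3 and 13.8 FPKM in si NC samples, and CDC45 had 12.2, 11.1 and 11.1 FPKM in PLOD3 siRNA samples, against 7.92, 8.95 and 8.03 FPKM in si NC samples. Both belong to the active helicase, CDC45 as the factor that GINS holds in place, and neither overlapped between the groups. For GINS2 the test gave a change of 0.48 ± 0.06 in log2 units (SE; edgeR adjusted p = 0.00416). For CDC45 it gave a change of 0.47 ± 0.10 in log2 units (SE; edgeR adjusted p = 0.0127). GINS1 had 12.1, 10.2 and 11.2 FPKM in PLOD3 siRNA samples, against 8.39, 7.95 and 8.84 FPKM in si NC samples, without overlap, and a change of 0.41 ± 0.08 in log2 units (SE; edgeR adjusted p = 0.011), a call that was lost after the GC correction (0.18, adjusted p = 0.128). GINS4 had 5.31, 5.17 and 5.60 FPKM in PLOD3 siRNA samples, against 4.65, 4.20 and 4.53 FPKM in si NC samples and a log2 fold change of 0.27 (edgeR adjusted p = 0.033), which was lost in each of the 6 fits with a sample left out, at adjusted p values of 0.0632 to 0.0788. GINS4 shares 21.2% of its exon bases with the antisense gene AC009630.2, listed at 0.212 FPKM on average. GINS3 overlapped between the groups at 4.12, 4.62 and 4.48 FPKM in PLOD3 siRNA samples, against 4.25, 4.18 and 4.04 FPKM in si NC samples (log2 0.09, edgeR adjusted p = 0.459). Of the 4 GINS subunits, 3 thus passed with all samples in the fit.

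**Figure D3:**
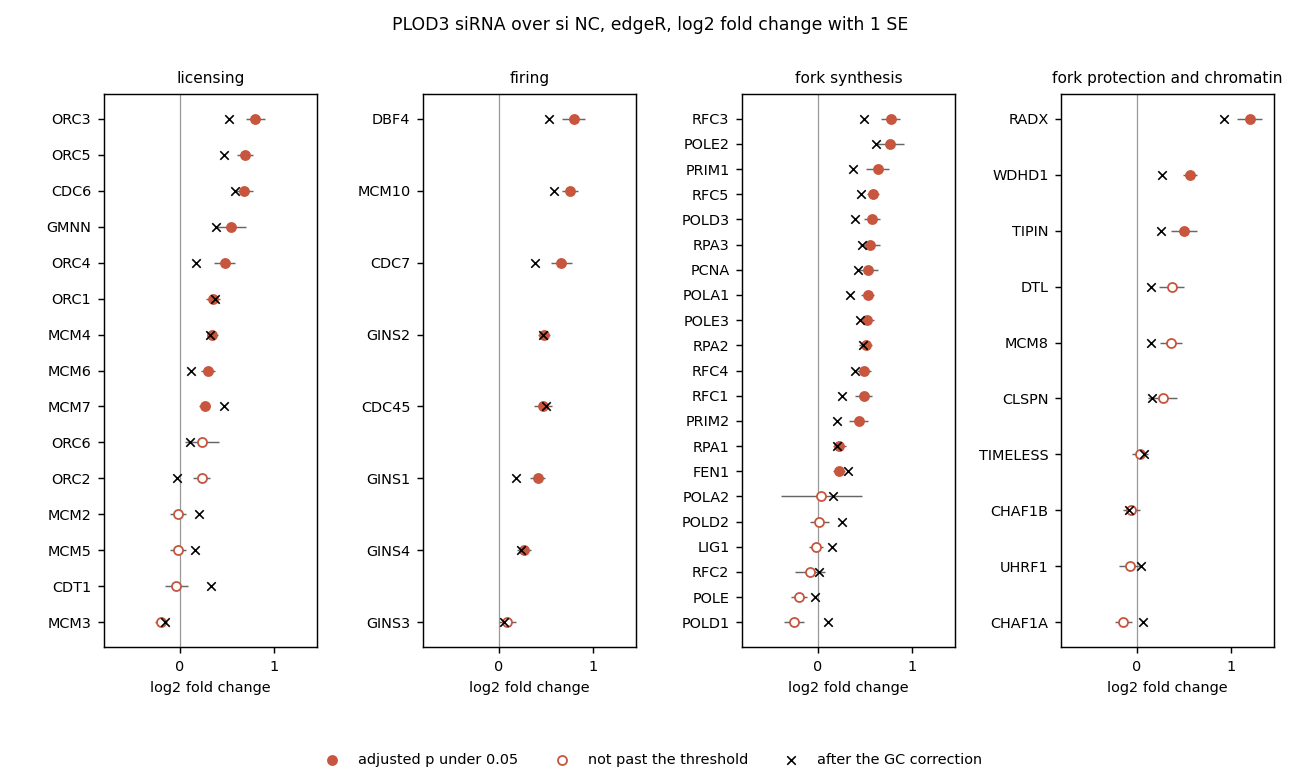
Log2 fold change of PLOD3 siRNA over si NC for each gene, with bars of 1 SE from edgeR, in 4 panels by role. Filled points passed the test (34 genes), open points did not (20 genes), and crosses are the values after the GC correction. RADX stands farthest to the right at 1.19, and POLD1 farthest to the left at -0.25.

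At the fork, 15 of 21 synthesis genes rose and 0 fell by edgeR, against 16.2% and 19.3% of all tested genes, with a median log2 fold change of 0.49. After the GC correction 13 were higher, against 12.0% of all tested genes, with a median of 0.34. DESeq2 called the same number higher, 15, and 0 lower, against 19.7% and 21.3% of all genes it tested. At an unadjusted p under 0.05, 2 genes were lower (POLD1 and POLE), against 24.6% of all tested genes. The clamp and its loader rose in 5 of 6 genes, RPA in 3 of 3, primase with polymerase alpha in 3 of 4, polymerase delta in 1 of 3, polymerase epsilon in 2 of 3, and lagging strand joining in 1 of 2. RFC3, a small subunit of the clamp loader, had 19.4, 18.9 and 16.1 FPKM in PLOD3 siRNA samples, against 11.6, 10.1 and 10.3 FPKM in si NC samples (ENSG00000133119, chromosome 13, 33818069 to 33966558, plus strand). No PLOD3 siRNA sample overlapped si NC, with a change of 0.77 ± 0.10 in log2 units (SE; edgeR adjusted p = 0.00408). RFC5, another small subunit, had 25.4, 24.5 and 24.0 FPKM in PLOD3 siRNA samples, against 17.1, 16.1 and 16.3 FPKM in si NC samples. Its replicates lay close together and its groups apart, with a change of 0.59 ± 0.06 in log2 units (SE; edgeR adjusted p = 0.00268). PCNA, the clamp and the highest of the 54 in FPKM, had 234, 288 and 259 FPKM in PLOD3 siRNA samples, against 193, 172 and 179.5 FPKM in si NC samples (ENSG00000132646, chromosome 20, 5114953 to 5126626, minus strand). The groups did not overlap although the PLOD3 siRNA samples were spread, and the log2 fold change was 0.53 (edgeR adjusted p = 0.0114). RFC4, with 15.2, 15.4 and 16.2 FPKM in PLOD3 siRNA samples, against 12.1, 10.5 and 11.0 FPKM in si NC samples, rose by 0.49 on the log2 scale (edgeR adjusted p = 0.00551). RFC1, the large subunit, with 17.8, 15.9 and 16.3 FPKM in PLOD3 siRNA samples, against 13.5, 10.7 and 11.8 FPKM in si NC samples, rose by 0.48 (0.00939). RFC2 overlapped between the groups at 17.4, 18.0 and 16.1 FPKM in PLOD3 siRNA samples, against 18.0, 21.9 and 14.8 FPKM in si NC samples (log2 -0.08, edgeR adjusted p = 0.71).

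Within polymerases epsilon and delta, some subunits passed the test and the catalytic ones did not. POLE2, an accessory subunit of polymerase epsilon, the leading strand polymerase, had 7.44, 8.62 and 7.45 FPKM in PLOD3 siRNA samples, against 5.21, 3.75 and 4.93 FPKM in si NC samples. All PLOD3 siRNA samples were above all si NC samples, with a change of 0.77 ± 0.15 in log2 units (SE; edgeR adjusted p = 0.0103). POLE3, a histone-fold subunit, had 51.3, 47.7 and 46.8 FPKM in PLOD3 siRNA samples, against 33.5, 34.9 and 33.5 FPKM in si NC samples and rose by 0.52 on the log2 scale (edgeR adjusted p = 0.00416). The catalytic subunit POLE was at 5.99, 5.59 and 6.71 FPKM in PLOD3 siRNA samples, against 7.77, 6.79 and 6.58 FPKM in si NC samples, with overlap, and its log2 difference of -0.20 did not pass (edgeR adjusted p = 0.106). In polymerase delta, the accessory subunit POLD3 had 4.39, 4.28 and 4.18 FPKM in PLOD3 siRNA samples, against 2.87, 2.71 and 3.06 FPKM in si NC samples, without overlap, and a change of 0.58 ± 0.09 in log2 units (SE; edgeR adjusted p = 0.00516). The catalytic subunit POLD1 had 8.32, 6.97 and 8.13 FPKM in PLOD3 siRNA samples, against 9.13, 10.3 and 8.51 FPKM in si NC samples. Its groups did not overlap, but the log2 difference of -0.25 did not pass (edgeR adjusted p = 0.0993), and it was 0.11 after the GC correction in a transcript of 65.0% GC. POLD2 overlapped between the groups at 21.6, 24.2 and 23.9 FPKM in PLOD3 siRNA samples, against 23.3, 20.8 and 25.1 FPKM in si NC samples (log2 0.02, edgeR adjusted p = 0.912).

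Primase, which makes the RNA primer, rose in both subunits as measured, but neither passed with GC and length. PRIM1, the catalytic subunit, had 12.9, 14.2 and 12.9 FPKM in PLOD3 siRNA samples, against 9.27, 7.25 and 9.43 FPKM in si NC samples. The groups did not overlap, with a change of 0.63 ± 0.12 in log2 units (SE; edgeR adjusted p = 0.0107). PRIM1 shares 14.9% of its exon bases with the same-strand gene AC117378.1, which was listed at 9.82 FPKM in PLOD3 siRNA replicate 1 and at 0 in the other 5 samples, so the PRIM1 value of that sample is uncertain. Without that sample PRIM1 still passed, as it did in all 6 fits with a sample left out and after the GC correction, but it did not pass with GC and length (0.23, edgeR adjusted p = 0.0873). PRIM2, with 7.83, 8.13 and 7.77 FPKM in PLOD3 siRNA samples, against 6.73, 5.26 and 5.68 FPKM in si NC samples, rose by 0.43 on the log2 scale (edgeR adjusted p = 0.0183), and did not pass without PLOD3 siRNA replicate 2 (0.0546) or si NC replicate 3 (0.0618). PRIM2 also did not pass after the GC correction (0.21, edgeR adjusted p = 0.0914) or with GC and length (0.17, 0.129). POLA1, the catalytic subunit of polymerase alpha, had 9.21, 8.31 and 8.94 FPKM in PLOD3 siRNA samples, against 6.60, 6.03 and 5.77 FPKM in si NC samples and rose by 0.53 (edgeR adjusted p = 0.0039). POLA2 was at 2.84, 2.16 and 5.29 FPKM in PLOD3 siRNA samples, against 1.78, 4.35 and 3.81 FPKM in si NC samples, the widest spread of the 54 in proportion to its level. POLA2 shares 35.1% of its exon bases with the same-strand gene AP000944.2, at 3.72, 4.28 and 1.08 FPKM in PLOD3 siRNA samples, against 5.36, 0.493 and 0.935 FPKM in si NC samples. The lowest POLA2 values stood in the samples with the highest AP000944.2 values in both groups, so POLA2 is uncertain and its log2 difference of 0.04 (edgeR adjusted p = 0.956) is not read as no change.

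RPA3, the smallest subunit of the single-strand binding complex, had 8.77, 9.52 and 8.15 FPKM in PLOD3 siRNA samples, against 6.16, 6.32 and 5.66 FPKM in si NC samples. No overlap was seen between the groups, with a change of 0.55 ± 0.11 in log2 units (SE; edgeR adjusted p = 0.011). RPA2 had 44.2, 44.9 and 45.9 FPKM in PLOD3 siRNA samples, against 30.8, 32.5 and 32.2 FPKM in si NC samples and rose by 0.50 on the log2 scale (edgeR adjusted p = 0.00431). RPA1, the DNA-binding large subunit, had 40.5, 40.4 and 38.3 FPKM in PLOD3 siRNA samples, against 35.8, 33.9 and 32.6 FPKM in si NC samples and a smaller rise of 0.23 (edgeR adjusted p = 0.0422), kept in 1 of 6 fits with a sample left out (the one without PLOD3 siRNA replicate 3) and otherwise at 0.0700 to 0.135. FEN1, the flap nuclease, had 87.1, 82.1 and 81.9 FPKM in PLOD3 siRNA samples, against 71.3, 73.5 and 70.4 FPKM in si NC samples and rose by 0.23 (edgeR adjusted p = 0.0344). FEN1 was kept without PLOD3 siRNA replicate 3 or si NC replicate 2, and stood at adjusted p values of 0.0671 to 0.115 in the other 4 fits. LIG1, the ligase that seals the lagging strand, overlapped between the groups at 11.5, 10.0 and 11.6 FPKM in PLOD3 siRNA samples, against 11.5, 11.6 and 10.5 FPKM in si NC samples (log2 -0.02, edgeR adjusted p = 0.871). With GC and length it was 0.23 and passed as higher (edgeR adjusted p = 0.0284).

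Among fork protection and chromatin genes RADX, WDHD1 and TIPIN rose. Of 10, 3 rose and 0 fell by edgeR, against 16.2% and 19.3% of all tested genes, with a median log2 fold change of 0.32. After the GC correction 2 were higher, against 12.0% of all tested genes, with a median of 0.15. With so few genes, these counts are not read as a result on the group. The number lower at an unadjusted p under 0.05 was also 0, against 24.6% of all tested genes. DESeq2 called 5 higher and 0 lower, against 19.7% and 21.3% of all genes it tested. RADX, which binds single-stranded DNA at forks, had 3.44, 3.14 and 2.65 FPKM in PLOD3 siRNA samples, against 1.42, 1.23 and 1.40 FPKM in si NC samples (ENSG00000147231, chromosome X, 106611930 to 106679437, plus strand). Each PLOD3 siRNA sample was well above each si NC sample, with a change of 1.19 ± 0.13 in log2 units (SE; edgeR adjusted p = 0.0028), the largest change of the 54, in the gene with the lowest mean level. After the GC correction it was 0.93 (adjusted p = 0.00475). WDHD1, which ties polymerase alpha to the helicase and is also called AND-1, had 8.41, 7.43 and 7.45 FPKM in PLOD3 siRNA samples, against 5.68, 5.01 and 5.15 FPKM in si NC samples. The groups did not overlap, with a change of 0.56 ± 0.08 in log2 units (SE; edgeR adjusted p = 0.00447). TIPIN, the partner of TIMELESS in the fork protection complex, had 10.0, 6.84 and 8.01 FPKM in PLOD3 siRNA samples, against 5.75, 6.04 and 5.83 FPKM in si NC samples. The groups did not overlap, with a change of 0.50 ± 0.14 in log2 units (SE; edgeR adjusted p = 0.0314), and the call was kept in 1 of 6 fits with a sample left out, the one without PLOD3 siRNA replicate 2, with adjusted p values of 0.0551 to 0.0815 in the other 5. TIPIN shares 21.0% of its exon bases with the processed pseudogene RPL9P25, at 5.00, 6.25 and 3.75 FPKM in PLOD3 siRNA samples, against 0.350, 0.177 and 4.38 FPKM in si NC samples, so its value is uncertain.

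TIMELESS itself overlapped between the groups at 14.0, 13.9 and 16.9 FPKM in PLOD3 siRNA samples, against 15.2, 14.2 and 14.7 FPKM in si NC samples (log2 0.03, edgeR adjusted p = 0.824). The checkpoint mediator CLSPN had 5.03, 3.90 and 5.28 FPKM in PLOD3 siRNA samples, against 4.69, 3.15 and 3.97 FPKM in si NC samples, with overlap (log2 0.27, edgeR adjusted p = 0.215). DTL, the adaptor that sends CDT1 for degradation on PCNA, had 11.3, 10.1 and 8.03 FPKM in PLOD3 siRNA samples, against 7.74, 7.33 and 7.90 FPKM in si NC samples. Its groups did not overlap, by a small margin at PLOD3 siRNA replicate 3, and its log2 difference of 0.37 did not pass (edgeR adjusted p = 0.0753), while without that sample it passed at 0.50 (0.0134). DESeq2 with all samples also called DTL higher (adjusted p = 0.0425), and after the GC correction it was 0.15 and did not pass (edgeR adjusted p = 0.4155). MCM8, a helicase of recombination at forks, had 5.05, 4.17 and 4.57 FPKM in PLOD3 siRNA samples, against 3.80, 3.03 and 3.94 FPKM in si NC samples, without overlap, and a log2 difference of 0.36, short of the threshold (edgeR adjusted p = 0.0533). MCM8 passed as higher under 4 alternatives, DESeq2 (adjusted p = 0.0241), limma on log2(TPM + 1) (0.0481), quantile normalization with limma (0.0363) and edgeR with GC and length (0.0386). The chromatin assembly factor CAF-1, which places histones behind the fork, was at 17.0, 14.1 and 17.4 FPKM in PLOD3 siRNA samples, against 17.3, 18.4 and 18.0 FPKM in si NC samples for CHAF1A. For CHAF1B it was at 6.72, 7.40 and 7.99 FPKM in PLOD3 siRNA samples, against 7.99, 7.38 and 7.77 FPKM in si NC samples. UHRF1, which guides DNA methylation to new DNA, had 20.6, 17.1 and 21.2 FPKM in PLOD3 siRNA samples, against 21.2, 22.9 and 18.0 FPKM in si NC samples. These 3 genes overlapped between the groups and had log2 differences of -0.14, -0.06 and -0.07 that did not pass (edgeR adjusted p = 0.234, 0.627 and 0.644).

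The order of the subunits by FPKM differed between the groups in some complexes. As levels of different genes compare only roughly, an order by FPKM may not be the order of transcript numbers. In the helicase, MCM7, MCM3 and MCM6 had the 3 highest FPKM values in that order and MCM5 the lowest in all 6 samples. MCM4 was above MCM2 in FPKM in all 3 PLOD3 siRNA samples and below it in all 3 si NC samples. In counts, MCM4 (14753 to 24416 units) was above MCM2 (10490 to 14252 units) throughout. In RPA, RPA2 was above RPA1 in all PLOD3 siRNA samples and below it in all si NC samples, and RPA3 was lowest throughout. In polymerase epsilon, POLE2 was above POLE in all PLOD3 siRNA samples and below it in all si NC samples. The margins were small for some pairs, such as MCM2 at 32.3 and MCM4 at 30.6 FPKM in si NC replicate 3, and RPA2 at 32.2 and RPA1 at 32.6 FPKM in the same sample. The order of GINS subunits (GINS2, GINS1, GINS4, GINS3) and of polymerase delta subunits (POLD2, POLD1, POLD3) was the same in all 6 samples. The ratio of the highest to the lowest helicase subunit was 3.84, 3.85 and 3.79 in PLOD3 siRNA samples, against 3.22, 2.92 and 3.31 in si NC samples. For polymerase delta the same ratio was 4.92, 5.65 and 5.71 in PLOD3 siRNA samples, against 8.11, 7.68 and 8.20 in si NC samples. These orders were noted after the values were seen and were not tested. MCM4 and MCM2 have 48.5% and 58.1% GC, with log2 changes of 0.34 and -0.02 as measured and 0.32 and 0.20 after the GC correction. For POLD3 and POLD2 (43.0% and 59.1%) these were 0.58 and 0.02, then 0.39 and 0.26. For POLE2 and POLE (43.7% and 56.4%) they were 0.77 and -0.20, then 0.61 and -0.03. For RPA2 and RPA1 (48.1% and 48.2%) they were 0.50 and 0.23, then 0.47 and 0.20.

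**Figure D4:**
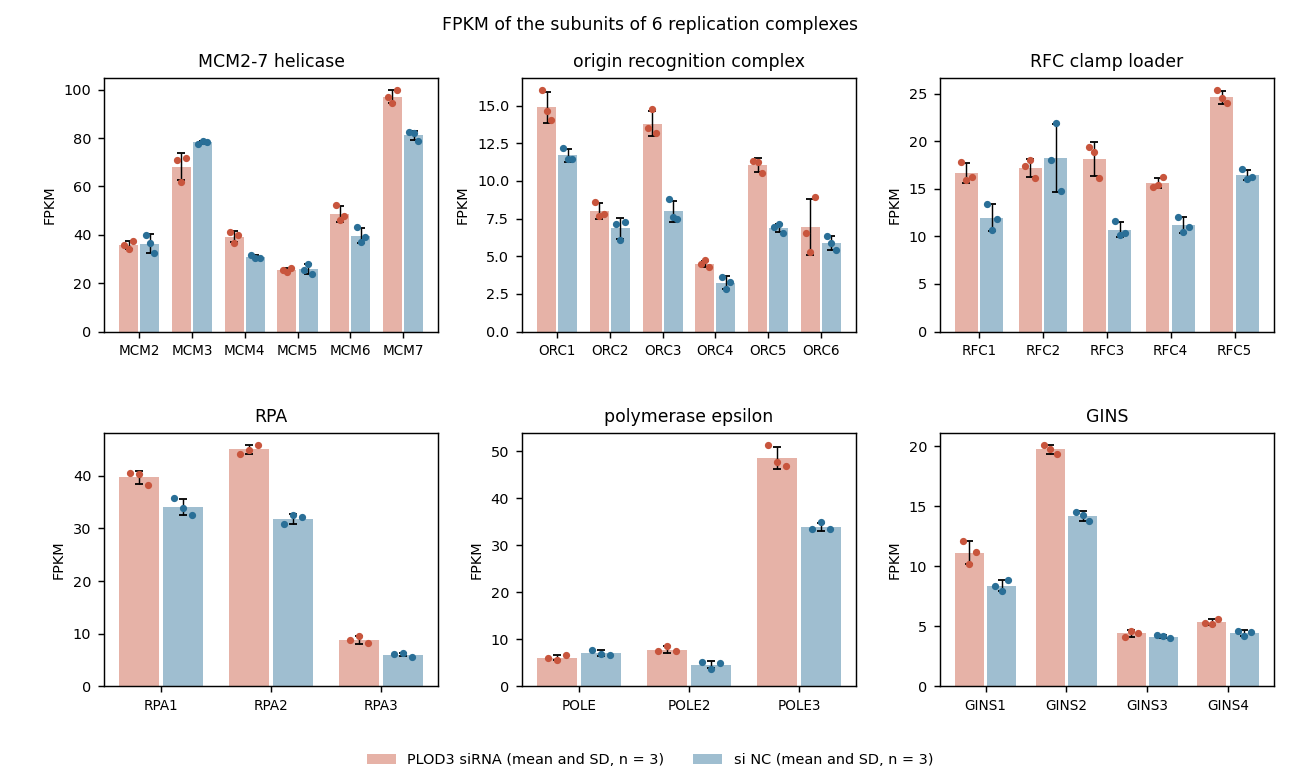
FPKM (y axis, from 0) of the subunits of 6 replication complexes, with bars for the mean, error bars of 1 SD and points for the samples (n = 3 per group), PLOD3 siRNA left of si NC for each gene. MCM2, MCM3, MCM5, RFC2 and POLE have the lower mean in PLOD3 siRNA, while MCM4, MCM6 and MCM7, 4 of 5 RFC genes and all 3 RPA genes have the higher mean.

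Other genes of the same pathway were taken from 6 lists with 60 genes, of which 57 were tested and MCM9, RNASEH2B and SHPRH were below the filter. Of the 57, 21 rose and 0 fell by edgeR, against 16.2% and 19.3% of all tested genes. At an unadjusted p under 0.05 also 0 were lower, against 24.6%, and DESeq2 called 27 higher and 0 lower, against 19.7% and 21.3%. Their median log2 fold change was 0.28. After the GC correction 18 were higher, against 12.0% of all tested genes, with a median of 0.15. Of the 21 that rose, 16 passed after that correction and 5 did not, TOP2B (0.01), MTBP (0.30), MCMBP (0.11), USP1 (0.14) and WDR48 (0.11), while CINP and TONSL passed in addition. The counts by list below are of edgeR without that correction. In origin firing and S phase kinases 6 of 13 rose, among them the firing factors TOPBP1 (log2 0.53), MTBP (0.61) and DONSON (0.45), the MCM-binding protein MCMBP (0.32), and the S phase cyclins CCNE2 (0.69) and CCNA2 (0.84). In the alternative clamp loaders and small polymerase subunits 3 of 7 rose, ATAD5 (1.00), which unloads PCNA, DSCC1 (0.52) and POLE4 (0.57). In flap, primer and supercoil processing 3 of 7 rose, the nuclease DNA2 (0.67) and the topoisomerases TOP2A (0.68) and TOP2B (0.28). In the replication checkpoint the kinase ATR rose (0.69), and at 1 of 8 the list lay below the 16.2% of all tested genes that rose. In PCNA modification and degradation 4 of 12 rose, the ubiquitin ligase RAD18 (0.78), LRR1 (0.88), which helps unload the helicase, and the deubiquitinase USP1 (0.39) with its partner WDR48 (0.33). In replication-coupled chromatin 4 of 10 rose, SUPT16H (0.49), MMS22L (0.69), HAT1 (0.73) and NASP (0.38), which are histone chaperones or their partners except HAT1, an acetyltransferase of new histones.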

How the data were processed

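RNA-seq libraries were made from total RNA after removal of ribosomal RNA, per the labels' protocols. Per the submitters' processing notes, the tools were StringTie 1.3.4d, HISAT2 2.0.4 and cutadapt 1.9. Neither the build, the annotation, the strand setting nor the counting method is given in the sources used here. For 60612 genes and 6 samples the authors deposited an FPKM, which scales fragments by gene length and library size, and an estimated count. The file header names the columns of estimated counts as count, with the sample. These counts are whole numbers that follow the FPKM: the ratio of count to FPKM varied between samples by a median of 0.0541% over 11398 genes. Counts piled up at 4 (1490 genes per sample on average, against 558 at 3 and 312 at 5), so about 4 units were taken as 1 read pair, and counting noise is larger than the units alone would give. By identifier, 96.3% of genes were found in the GENCODE annotation of GRCh38, and coordinates were read as GRCh38.

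Genes with a mean of at least 1 FPKM over the 6 samples were kept (12000). Counts were scaled by TMM, and PLOD3 siRNA was compared with si NC by the quasi-likelihood test of edgeR 4.0.16 in R 4.3.3 (two-sided, all 6 samples, no covariate), with Benjamini-Hochberg adjustment over all 12000 genes and a threshold of 0.05. A fold change is PLOD3 siRNA over si NC on the log2 scale, and its SE is the log2 fold change divided by the square root of its F statistic. GC content and length came from GENCODE transcripts (11968 genes with a value), and a loess trend (span 0.5) per sample was entered as an offset for the GC correction. DESeq2 1.42.0, limma 3.58.1 on log2(FPKM + 1) or log2(FPKM + 0.1), other filters and scalings, a replicate block and leaving out each sample were the alternatives. The groups and replicate numbers came from the sample titles. The genes, roles, pathway lists and cell markers were chosen with earlier results of these data known. All 54 genes are named, and in each role up to 6 genes with the largest changes that passed the test have every statistic given.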

Additional observations from a re-analysis of the deposited data

How the results depend on the processing

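Of the 34 genes that rose, 17 passed in each of the 18 alternatives that tested them (ORC3, ORC5, CDC6, MCM10, CDC45, DBF4, GINS2, RFC1, RFC3, RFC4, RFC5, POLA1, POLD3, POLE3, RPA2, RPA3 and RADX), and 24 passed in all 6 fits that left out a sample. No share over all tested genes is at hand for these counts, so they describe the single genes only. Leaving out a sample gave 24 to 32 members higher and 0 lower, 1083 to 1651 of all genes higher (9.03% to 13.8%), 1509 to 2011 lower, and a member median of 0.34 to 0.44. Testing only genes with a mean of at least 5 FPKM gave 1192 genes higher and 1354 lower, and 1 member lower (MCM3), against 22.2% of the genes tested, with 9 members below that filter. The member median was 0.35 with limma on log2(FPKM + 1), 0.47 on log2(TPM + 1), 0.33 after quantile normalization, which called 1 member lower (MCM3), against 18.1% of all genes, and under which MCM4, MCM6, MCM7, FEN1 and RPA1 did not pass, 0.26 with the GC correction and 0.29 with GC and length. On log2(TPM + 1), 2470 genes were higher and 1461 lower, so that 62.8% of calls were higher, against 45.6% with edgeR.

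Replicate numbers are shared by the groups, but the deviations of same-numbered samples correlated at 0.05, -0.01 and -0.02, so the numbers were not read as pairs. With the replicate as a block, 28 members were higher, against 12.3% of all genes (1471 higher, 1834 lower). With the block and the GC correction, 21 members were higher, against 7.92% of all genes (950 higher, 1288 lower), with a median of 0.26. The 13 genes that rose and did not pass there were ORC4, GMNN, MCM6, CDC7 (adjusted p = 0.0575), GINS1, GINS4, PCNA (0.0562), PRIM1 (0.0802), PRIM2, POLE2 (0.0634), RPA1, TIPIN and WDHD1 (0.0664), and with the block alone ORC4, GMNN, GINS4, FEN1, RPA1 and TIPIN did not pass.

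No gene that rose reversed its direction in any alternative. Genes that had not passed reversed as follows, on the log2 scale. With the GC correction the values were -0.029 for ORC2, 0.33 for CDT1, 0.20 for MCM2, 0.16 for MCM5, 0.012 for RFC2, 0.11 for POLD1, 0.15 for LIG1, 0.064 for CHAF1A and 0.044 for UHRF1. With GC and length they were 0.36 for CDT1, 0.27 for MCM2, 0.22 for MCM5, 0.16 for POLD1, 0.13 for POLE, 0.23 for LIG1, 0.10 for CHAF1A, 0.030 for CHAF1B and 0.14 for UHRF1, of which CDT1, MCM5 and LIG1 passed as higher. With the block and the GC correction they were -0.028 for ORC2, 0.33 for CDT1, 0.21 for MCM2, 0.16 for MCM5, 0.025 for RFC2, 0.11 for POLD1, 0.15 for LIG1, 0.062 for CHAF1A and 0.046 for UHRF1. On log2(TPM + 1) they were 0.076 for CDT1, 0.086 for MCM2, 0.084 for MCM5, 0.033 for RFC2, 0.080 for LIG1, 0.035 for CHAF1B and 0.029 for UHRF1. After quantile normalization they were -0.046 for POLD2 and -0.015 for TIMELESS, and with the filter at 5 FPKM -0.027 for POLD2 and -0.014 for TIMELESS. Over the fits that left out a sample, CDT1 ran from -0.10 to 0.11, MCM2 from -0.084 to 0.040, MCM5 from -0.064 to 0.064, RFC2 from -0.20 to 0.092, POLA2 from -0.40 to 0.30, POLD2 from -0.040 to 0.094, LIG1 from -0.056 to 0.027, TIMELESS from -0.054 to 0.081, CHAF1B from -0.11 to 0.013 and UHRF1 from -0.16 to 0.024. The cause of these moves was not tested. The 3 samples per group limit the precision, and the read depth behind a gene is known only through units that overstate it.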
